A study of Homo sapiens with 36 samples.

Results

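Chromatin-associated RNA was compared between a DIS3-AID clone and its control line with no auxin added to either, so the contrast is between 2 cell lines and not between treated and untreated cells. It rests on 6 of the 36 libraries of the series, 3 from the DIS3-AID clone and 3 from the control, chosen by their fraction, genotype and missing treatment. Both lines derive from HCT116, a human colon carcinoma line, and the control expresses TIR1, the plant F-box protein that binds auxin. The DIS3-AID cells are a single CRISPR clone in which an auxin-inducible degron (AID) tag was added to the DIS3 gene. Total RNA of the chromatin fraction, obtained by stepwise lysis in buffers of different salt content, was depleted of ribosomal RNA and sequenced. Other libraries of the series used here for comparison are the same 2 lines on chromatin after 1 h of 500 uM auxin, and in cytoplasm without auxin, with 3 libraries a group. The study's description calls the cytoplasmic triplicates technical, and nothing says that the chromatin triplicates came from separate cultures. The p-values therefore measure the spread between these libraries, which may be technical, and a difference between 1 clone and its control line cannot be told apart from a difference that another clone would lack.

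DIS3 is the catalytic subunit of the nuclear RNA exosome, a ring-shaped complex that trims and degrades RNA from its 3' end. In the nucleus it removes short-lived transcripts such as promoter upstream transcripts and antisense RNAs, and it takes part in the maturation of small nuclear and nucleolar RNAs. In cells with TIR1, auxin brings the ubiquitin ligase to the AID tag and the tagged protein is degraded, so the untreated clone is the starting point against which depletion is usually read. RNA bound to chromatin is rich in unspliced and nascent transcripts, so levels there follow ongoing transcription more closely than levels in cytoplasm do.

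The chromatin libraries of the DIS3-AID clone held 89150690, 70186060 and 59019105 counts, and those of the control held 107624713, 55436565 and 139011514. The first principal component of the 6 libraries held 71.9% of the variance and stood at 15, 26.5 and 22.6 for the clone and at -18.6, -23 and -22.4 for the control, with clone library 1 nearest to the control. Abundant cytoplasmic mRNAs (8 genes such as GAPDH and ACTB) were lower on chromatin than in cytoplasm by a median log2 of -5.51 in the clone and -5.44 in the control. The other fraction markers differed more between the lines. Nuclear-retained long non-coding RNAs had a median of 1.74 in the clone and 2.35 in the control, with 3 of 13 lower on chromatin in each line. Mitochondrially encoded mRNAs had medians of -3.53 in the clone and -2.34 in the control. In bulk libraries, fewer cells of a type and less RNA per cell cannot be told apart.

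Without auxin, 8120 of 24966 features tested on chromatin (32.5%) differed between the lines at an adjusted p under 0.05 (edgeR quasi-likelihood test, Benjamini-Hochberg). Of these, 3785 (15.2%) were higher and 4335 (17.4%) were lower in the clone. Scaling by library size alone, without the trimmed mean (TMM) factor, turned this split into 4788 higher and 3359 lower. The 3 and 3 libraries did not overlap for 11572 features (46.4%), and 7901 features met both criteria. Most differences were small: the median absolute log2 difference of the called features was 0.39, and 352 were at least 2-fold higher and 281 at least 2-fold lower in the clone.

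**Figure D1:**
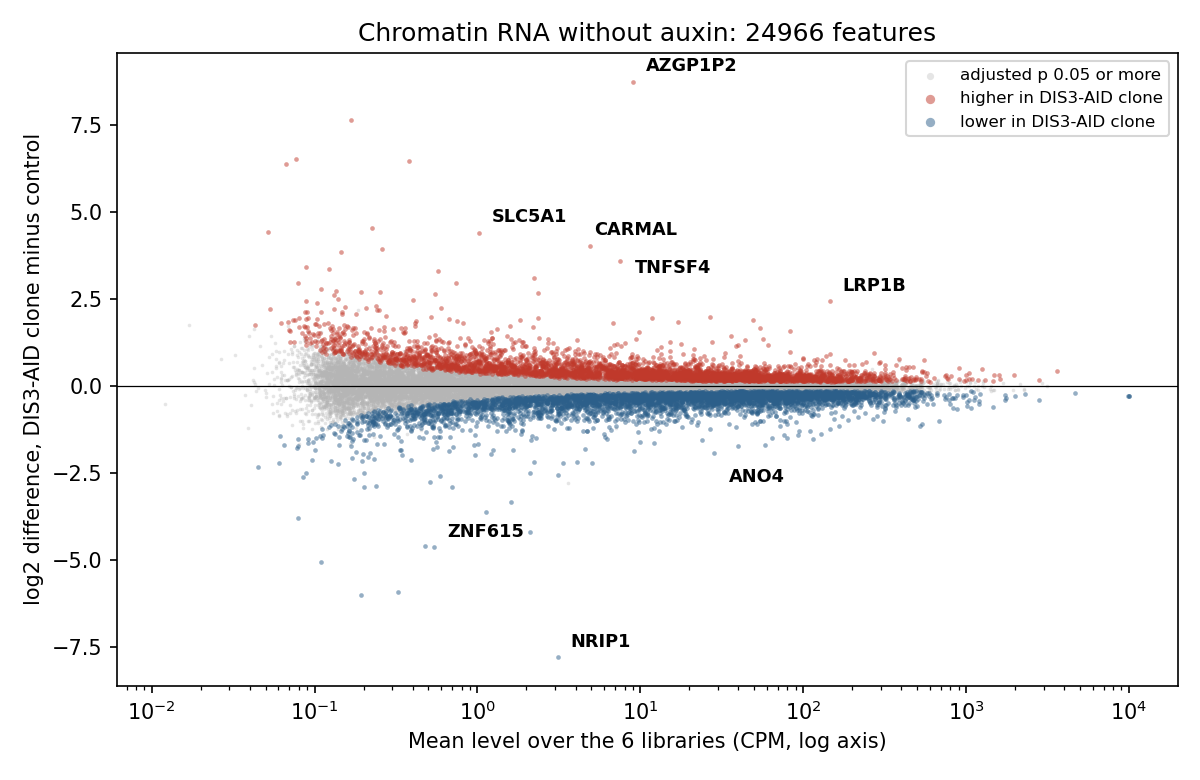
Log2 difference between the DIS3-AID clone and the control (vertical axis) against the mean level over the 6 untreated chromatin libraries in CPM (log axis), 1 point a feature. Red points were higher and blue points lower in the clone at an adjusted p under 0.05; AZGP1P2 lies at 8.75 and NRIP1 at -7.78, while most called features lie close to 0.

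Protein-coding genes made up most of the calls, with 2448 higher and 3203 lower in the clone of 14629 tested, and 140 in each direction at 2-fold or more. Long non-coding RNAs had 850 higher and 721 lower of 5533, but their share of all counts was lower in the clone, at 7.07%, 7.06% and 7.02%, against 7.26%, 7.21% and 7.2% in the control (exact permutation test, two-sided p = 0.1, the smallest that 3 against 3 allows). Loci assembled by the submitters, which carry no Ensembl gene, had 153 higher and 66 lower of 1005 and a median log2 of 0.11. Their rises were as frequent as those of all features, and only their falls were fewer. Their mean share of all counts was 0.67% in the clone and 0.687% in the control (exact permutation test, two-sided p = 0.2). Small nucleolar RNAs (snoRNAs) were lower in 64 of 323 and higher in 5. The shares of all features, 15.2% higher and 17.4% lower, are the background for these counts and for every list below. The 13 mRNAs of the mitochondrial genome were higher in 10 and lower in 0. The median over all features tested was 0.00.

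The calls were also set beside the other pairs of libraries. In the auxin-treated chromatin pair 9802 features (39.3%) differed between the lines, 4709 higher (18.9%) and 5093 lower (20.4%) in the clone. In untreated cytoplasm 5085 of 23027 features (22.1%) differed, 2227 higher (9.67%) and 2858 lower (12.4%). Of all 8120 calls on untreated chromatin, 3932 were called in the same direction and 512 in the opposite direction after auxin. In cytoplasm 7516 of the 8120 were tested, with 1909 called in the same direction and 384 in the opposite one. Of the 633 features called and at least 2-fold on untreated chromatin, 387 were called in the same direction and 20 in the opposite direction after auxin. Of the 421 of them that were tested in cytoplasm, 213 were called in the same direction and 2 in the opposite one.

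DIS3 itself (ENSG00000083520.14, chromosome 13:72752169-72782096, minus strand, hg38) was lower in the clone before any auxin. Its level, in counts per 1000000 (CPM) of the scaled library, was 37.4, 30.4 and 33.3 CPM in the clone, against 55.3, 53.5 and 55.4 CPM in the control. Every clone library lay below every control library, and the log2 difference was -0.70 ± 0.08 (SE, adjusted p = 4.23e-06, edgeR). The gap between the clone differences of DIS3 on chromatin and in cytoplasm, 0.15, did not pass the test (adjusted p = 0.286).

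PIBF1 (ENSG00000083535.15, chromosome 13:72782059-73016461, plus strand), whose product is a centriolar satellite protein, starts head to head with DIS3 and overlaps its first bases in the annotation. It had 201, 160 and 162 CPM in the clone and 233, 257 and 254 CPM in the control, again without overlap. PIBF1 fell by 0.51 on the log2 scale on chromatin (adjusted p = 3.01e-04), whereas its cytoplasmic difference was 0.04, and the chromatin and cytoplasm differences differed from each other by -0.55 (adjusted p = 0.00148). Neither the strand setting of the counting nor the site of the inserted tag is given in the sources used here, so reads of the 2 genes where they overlap cannot be told apart. The other genes around DIS3 did not pass the test: MZT1, a gamma-tubulin ring component, differed by -0.05 (adjusted p = 0.575), BORA, an Aurora A activator, by 0.10 (0.247) and KLF5, a transcription factor, by -0.15 (0.0891). BORA was called higher, at 0.20 (adjusted p = 0.00335), once the GC content of transcripts was levelled. The 232 bases between the starts of DIS3 and PIBF1 in RefSeq (GRCh38.p14, chr13:72781901-72782132, minus strand, so reading towards DIS3) are shown because both genes were lower in the clone and start here in opposite directions. The coordinates given above are those of GENCODE, in which both genes reach into this stretch.
DIS3 to PIBF1: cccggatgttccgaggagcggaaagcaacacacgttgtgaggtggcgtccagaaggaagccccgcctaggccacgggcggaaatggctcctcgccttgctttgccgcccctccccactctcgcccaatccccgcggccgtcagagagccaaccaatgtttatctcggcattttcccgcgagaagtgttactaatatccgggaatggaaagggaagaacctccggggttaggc

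Among the enzymes related to DIS3, DIS3L, the catalytic subunit of the cytoplasmic exosome, was higher in the clone. It had 42, 40.2 and 39 CPM in the clone and 31, 29.5 and 29.7 CPM in the control (log2 0.42, adjusted p = 3.94e-05), while the cytoplasmic difference was 0.05, and these differences differed by 0.37 (adjusted p = 0.00157). EXOSC10, the other nuclear exonuclease of the exosome, had 81.4, 87.9 and 86.5 CPM in the clone and 82.4, 73.2 and 79.6 CPM in the control, and its groups overlapped (log2 0.12, adjusted p = 0.138). With library size alone EXOSC10 was called, at 0.17 (adjusted p = 0.044). DIS3L2, a uridylation-dependent exonuclease, had 438, 409 and 394 CPM in the clone and 403, 398 and 411 CPM in the control (log2 0.04, adjusted p = 0.637). The 5'-to-3' exonucleases XRN1 and XRN2 differed by -0.16 (adjusted p = 0.0632) and -0.14 (0.173), and each was called lower without clone library 1. Of the 9 ring and cap subunits, 2 were higher (22.2%) and 1 was lower (11.1%), against 15.2% and 17.4% of all features. EXOSC5 had 11.6, 12.6 and 11.9 CPM in the clone and 9.51, 9.21 and 8.81 CPM in the control (log2 0.39, adjusted p = 0.00156), so its libraries did not overlap. The calls of EXOSC1 (log2 0.26, adjusted p = 0.0418) and EXOSC9 (log2 -0.25, adjusted p = 0.0129) were lost in several fits: EXOSC1 without clone library 2 (adjusted p = 0.21) or 3 (0.134) or control library 1 (0.126) or 3 (0.148) or with a replicate block (0.0534), and EXOSC9 without clone library 2 (0.0936) or control library 1 (0.0544) or after GC levelling (0.0775).

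Of 21 cofactors that recruit, assist or restrain the exosome, 1 was higher (4.76%) and 6 were lower (28.6%), against 15.2% and 17.4% of all features. The number lower was 3 without clone library 2, clone library 3 or control library 3. NRDE2, which binds and restrains the helicase MTREX, was the one that rose, with 68, 70.3 and 70.4 CPM in the clone and 55.1, 55.2 and 57.6 CPM in the control (log2 0.31). TENT4A, a non-canonical poly(A) polymerase, had 189, 200 and 209 CPM in the clone and 265, 245 and 264 CPM in the control (log2 -0.37, adjusted p = 8.21e-05), with no overlap. Among the protein-coding genes of chromosome 5 compared below, it comes directly before MTRR, at the edge of a stretch of lower genes. Its neighbours SRD5A1 and MTRR differed by -0.48 and -0.60. The part of this stretch in the TENT4A difference was not tested. ZFC3H1, a scaffold of the poly(A) tail exosome targeting complex, and NCBP2, the small subunit of the nuclear cap-binding complex, fell by 0.32 and 0.36 on the log2 scale. SKIC3, a scaffold of the cytoplasmic SKI complex, differed by -0.16 on chromatin (adjusted p = 0.124) and by -0.96 in cytoplasm, and the gap between the 2 fractions was 0.80 (adjusted p = 1.38e-06); it was called lower on chromatin without clone library 1.

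Of protein-coding genes with at least 1 CPM in the line where they were higher, the 2 with the largest falls were nearly silent in the clone. The rule that named the falls and rises below also required no overlap between the 3 and 3 libraries. NRIP1 (ENSG00000180530.10, chromosome 21:14961235-15065936, minus strand), a corepressor of nuclear receptors, had 3, 2 and 1 counts in the clone libraries, against 691, 331 and 846 in the control. Its level in the clone was 0.428% of that in the control, with an exact 95% interval of 0.157% to 0.933% that covers counting error only. The only other tested features within 500 kb were the overlapping lncRNAs ENSG00000235609 and LINC02246, which fell by 4.20 and 5.99 on the log2 scale; the first overlaps NRIP1 on its strand, and the second overlaps the first. ZNF615 (ENSG00000197619.13, chromosome 19:51991332-52008230, minus strand), a KRAB-type zinc finger gene, had 4, 4 and 1 counts in the clone and 109, 64 and 132 in the control, or 3.93% of the control level (exact 95% interval 1.78% to 7.56%). The nearby zinc finger genes ZNF613 and ZNF614 had log2 differences of 0.02 and 0.11 and neither was called, whereas ZNF432 fell by 1.15 (adjusted p = 0.00351).

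ERBB4, a receptor tyrosine kinase for neuregulins, had 0.323, 0.207 and 0.329 CPM in the clone and 3.03, 2.93 and 2.78 CPM in the control (log2 -3.34 ± 0.19, adjusted p = 2.97e-10). Every control library was above every clone library. In cytoplasm, where ERBB4 was barely detected, the difference was -1.08 (adjusted p = 0.0942), and the 2 differences differed by -2.25 (adjusted p = 0.00254). ANO4, a member of the anoctamin family of membrane proteins, had 13.5, 10.9 and 11.4 CPM in the clone and 46.4, 44.1 and 44.3 CPM in the control (log2 -1.91). The remaining large falls were ZNF850 (-3.62), TUSC3 (-2.55), a subunit of the oligosaccharyltransferase, SNAP25 (-2.49), a SNARE protein of synaptic vesicle fusion, LMNTD1 (-2.19), which overlaps another feature on its strand, SH3GL2 (-1.95), VIM (-1.86), HPSE2 (-1.83) and FGF9 (-1.80). The groups of all these genes, ERBB4 included, did not overlap, as the rule that named them required.

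Among the rises, under the same limit of 1 CPM, TNFSF4, the ligand of the T-cell receptor OX40, had 13.7, 13.9 and 14.1 CPM in the clone and 1.13, 1.13 and 1.14 CPM in the control. Its libraries were nearly identical within each line, and the log2 difference was 3.61 ± 0.09 (adjusted p = 1.99e-15). SLC5A1, the intestinal sodium-glucose transporter, had 1.8, 2.15 and 1.92 CPM in the clone and 0.0741, 0.091 and 0.104 CPM in the control (log2 4.41). SPARC, a matricellular protein, had 3.83, 4.39 and 3.95 CPM in the clone and 0.556, 0.692 and 0.676 CPM in the control (log2 2.67). The groups stood far apart for both. LRP1B, a large receptor of the LDL receptor family, had 266, 239 and 241 CPM in the clone and 43.8, 47.3 and 45.4 CPM in the control (log2 2.45). Annotated features lie inside LRP1B on the same strand, so part of its reads is uncertain. Its difference was larger in cytoplasm, at 3.94, and the gap between the fractions was -1.49 (adjusted p = 2.10e-08).

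NRG1, a neuregulin and thus a ligand of the ERBB family to which ERBB4 belongs, had 80.8, 73.2 and 77 CPM in the clone and 20.1, 20 and 22.3 CPM in the control (log2 1.89 ± 0.07, adjusted p = 4.10e-13). Its lowest clone library was far above its highest control library. RBBP8NL (3.31), RERG (2.97), TRABD2B (1.98), WASF3 (1.95), an actin regulator, MYRIP (1.95), NRP2 (1.93), a receptor for semaphorins and VEGF, and LBH (1.91) completed the 12 largest rises. TRABD2B overlaps another annotated feature on its strand.

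**Figure D2:**
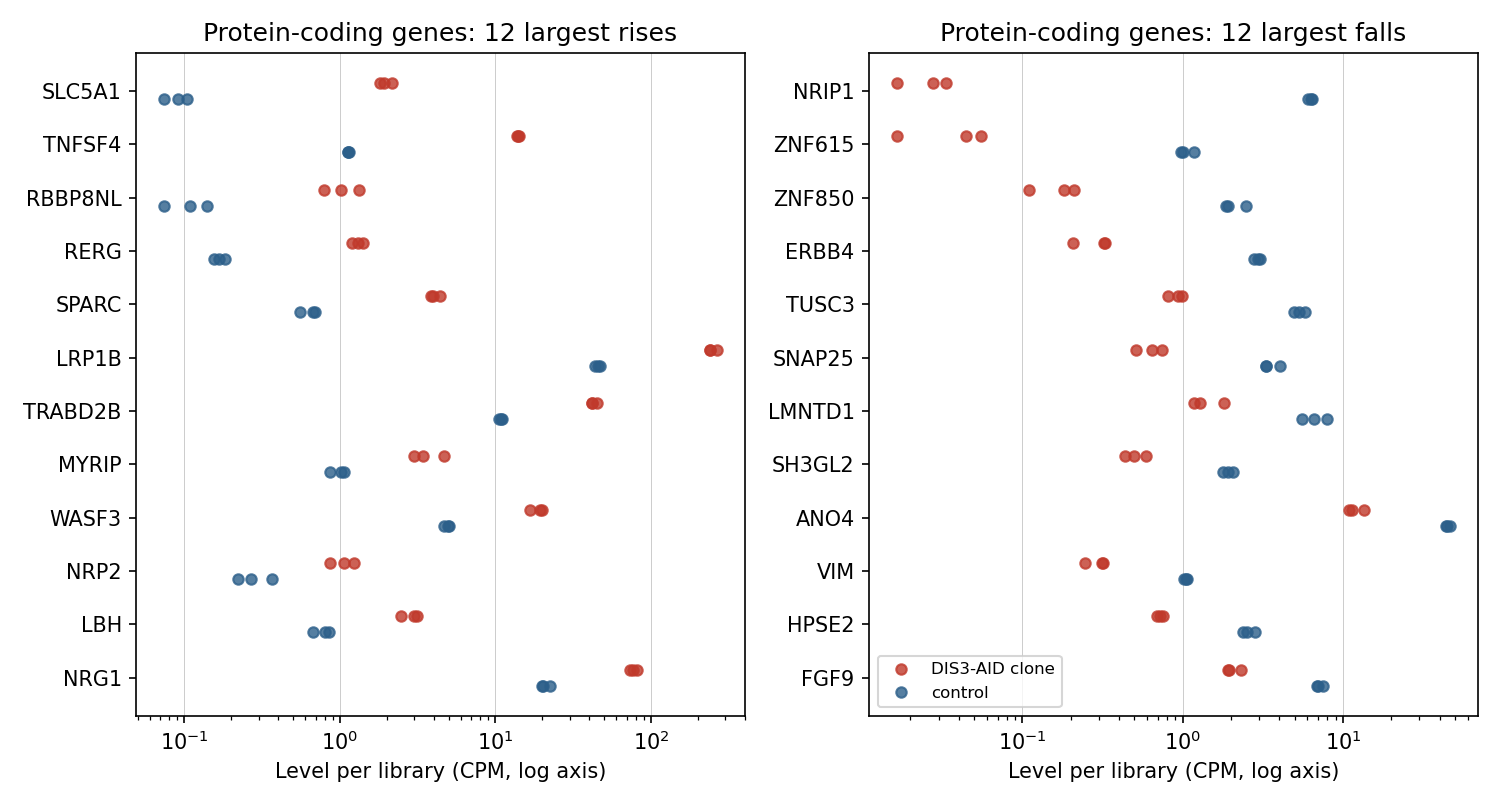
Level in each of the 6 untreated chromatin libraries (CPM, log axis) of the 12 protein-coding genes with the largest rises (left) and the 12 with the largest falls (right) among genes at 1 CPM or more in the higher line, red for the DIS3-AID clone and blue for the control. The red and blue points of a gene never overlap, as the rule that named these genes required; NRIP1 in the clone lies between 0.0165 and 0.0334 CPM.

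Of non-coding genes with a symbol of their own and at least 1 CPM in the line where they were higher, the pseudogene AZGP1P2 (ENSG00000214252.4, chromosome 7:101287482-101289771, minus strand) showed the largest rise. It had 18.1, 18.9 and 17.1 CPM in the clone, while the control libraries held 3, 2 and 7 counts, which is 0.223% of the clone level (exact 95% interval 0.115% to 0.39%). Reads of a pseudogene can be shared with its parent gene, so its level is uncertain. The lncRNA CARMAL had 8.64, 10.1 and 8.98 CPM in the clone and 0.621, 0.473 and 0.55 CPM in the control (log2 4.04). LINC02058 (3.11), EGFEM1P (1.57), HOXA-AS2 (1.45) and LINC01389 (1.39) followed. The falls were MACROD2-IT1 (-2.21), OFCC1 (-2.20), VIM-AS1 (-2.18), which lies antisense to VIM, ZNF433-AS1 (-1.99), LINC02112 (-1.85) and GUCY2C-AS1 (-1.83). LINC02112 overlaps the gene TAS2R1 on its strand and had 3.8, 4.32 and 3.87 CPM in the clone and 14.6, 14.5 and 14.2 CPM in the control. All 12 non-coding genes had groups that did not overlap, as the rule that named them required.

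Heat shock genes, which encode chaperones under control of the factor HSF1, were lower in the untreated clone. All 8 members that passed the filter on low counts fell, against the 17.4% of features that were lower in all, and their median log2 was -0.66. HSPA1A and HSPA1B, which are near-identical copies, did not pass the filter. HSPH1, a nucleotide exchange factor of HSP70, had 68.8, 51.2 and 60.5 CPM in the clone and 157, 186 and 170 CPM in the control (log2 -1.51 ± 0.15, adjusted p = 8.17e-06). HSPA8, the constitutive HSP70, had 104, 89.2 and 92.1 CPM in the clone and 148, 154 and 148 CPM in the control (log2 -0.66). Neither gene had overlapping groups. The co-chaperones BAG3 and DNAJB1 fell by 0.87 and 0.86, and HSP90AA1 and HSPD1 by 0.47 and 0.37 on the log2 scale.

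After auxin, 1 of the 8 heat shock genes, DNAJB1, was lower in the clone (log2 -0.30, adjusted p = 0.00928) and 0 were higher. HSPH1 then had 48, 68.6 and 76.1 CPM in the clone and 75.1, 73.1 and 66.1 CPM in the control, and its groups overlapped. HSPA8 had 102, 112 and 109 CPM in the auxin-treated clone and 122, 111 and 103 CPM in the auxin-treated control. The change of the clone difference with auxin was positive and past the threshold for all 8 genes, and the chromatin difference was more negative than the cytoplasmic one for all 8. The summed level of the list was 441 to 517 CPM in the untreated clone, 484 to 536 CPM in the clone with auxin, 496 to 554 CPM in the control with auxin and 753 to 820 CPM in the untreated control. The 3 untreated control libraries thus lay above the other 9 chromatin libraries of these lines. Whether those 3 libraries were handled differently was not tested. All 8 calls held in each of the 14 alternative fits, leaving out any 1 library included.

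Promoters of the stress genes are shown for 1 member of each of 3 lists, with the match of a textbook motif in capitals. The promoter of HSPA8 (RefSeq, GRCh38.p14, chr11:123062137-123062386, minus strand) holds 2 matches of the heat shock element, read as GAA, 2 bases, TTC, 2 bases and GAA, 1 on each strand. Of 35116 promoters, each read over the 250 bases before the start, 155 (0.441%) hold this element on either strand, and 3 of the 10 list members do, namely HSPA8, HSP90AA1 and HSPD1. The promoter of EGR1 (chr5:138465229-138465478, plus strand) holds 2 CArG boxes, the site of serum response factor, which 407 promoters (1.16%) hold, and EGR1 and EGR2 were the 2 of 25 immediate-early members with a promoter in the table that did. The promoter of HSPA5 (chr9:125241344-125241593, minus strand) holds the endoplasmic reticulum stress element, read as CCAAT, 9 bases and CCACG, found in 26 promoters (0.074%) and in 4 of 20 unfolded protein response members (HSPA5, HSP90B1, CALR and XBP1). The background counts promoters, while a list member was counted as a gene if any of its promoters matched, so these shares are not in like units. Each promoter shown is the one of its gene with the most matches. A match describes the letters only, not a bound site.
HSPA8: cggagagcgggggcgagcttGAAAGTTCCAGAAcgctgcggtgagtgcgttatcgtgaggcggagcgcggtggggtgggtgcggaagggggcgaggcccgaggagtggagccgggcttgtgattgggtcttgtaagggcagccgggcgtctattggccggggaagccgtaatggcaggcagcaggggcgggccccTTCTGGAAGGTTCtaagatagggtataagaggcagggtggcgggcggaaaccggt
EGR1: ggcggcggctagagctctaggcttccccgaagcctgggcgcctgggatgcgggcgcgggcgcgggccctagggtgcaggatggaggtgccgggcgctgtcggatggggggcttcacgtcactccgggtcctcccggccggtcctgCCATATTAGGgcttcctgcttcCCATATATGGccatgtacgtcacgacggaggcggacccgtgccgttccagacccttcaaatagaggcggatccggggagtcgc
HSPA5: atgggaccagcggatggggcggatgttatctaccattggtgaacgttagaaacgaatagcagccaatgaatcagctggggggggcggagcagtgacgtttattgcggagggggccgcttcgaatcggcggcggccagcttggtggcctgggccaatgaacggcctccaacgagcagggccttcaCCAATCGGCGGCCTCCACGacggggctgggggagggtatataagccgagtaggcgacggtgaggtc

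Immediate-early and AP-1 genes, which respond within minutes to growth factors and stress, were lower in the clone too. Of 33 tested, 21 were lower and 0 higher, with a median log2 of -0.52 on chromatin, -0.61 in cytoplasm and -0.87 on chromatin after auxin. JUN, a subunit of AP-1, had 3.9, 3.18 and 2.45 CPM in the clone and 7.78, 10.6 and 8.26 CPM in the control (log2 -1.45 ± 0.19, adjusted p = 4.27e-05). KLF10, a TGF-beta-inducible repressor, had 19.6, 12.6 and 15.9 CPM in the clone and 34, 42 and 37.4 CPM in the control (log2 -1.23). Neither gene's groups overlapped. NR4A3 and EGR3 fell by 1.38 and 1.30, and ATF3 by 0.77 on the log2 scale. EGR1 had 15.9, 8.72 and 8.28 CPM in the clone and 21.8, 28.7 and 24.2 CPM in the control (log2 -1.16, adjusted p = 0.0234). Clone library 1 lay nearer to the control for EGR1, and the call was lost without clone library 2 (adjusted p = 0.0957) or 3 (0.0698) or control library 2 (0.0633) or 3 (0.0588), and with a replicate block on the 6 untreated libraries (0.0511). With auxin, 0 of the immediate-early genes had a clone difference that became more positive past the threshold and 5 had one that became more negative.

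Genes of the integrated stress and unfolded protein responses gave 16 lower and 0 higher of 21 (1 higher without clone library 1 or with library size alone), with a median log2 of -0.48 on chromatin, -0.22 in cytoplasm and -0.33 after auxin. CHAC1, a glutathione-degrading enzyme induced by ATF4, had 0.456, 0.427 and 0.444 CPM in the clone and 1.01, 1.04 and 0.653 CPM in the control (log2 -0.98). HSPA5, the chaperone BiP, had 26, 21.9 and 20.8 CPM in the clone and 37.2, 36.7 and 34.4 CPM in the control (log2 -0.65), and DDIT3 fell by 0.64. The control stood above the clone in every library of both CHAC1 and HSPA5. Targets of p53 gave 10 lower and 0 higher of 24. CDKN1A, the cell cycle inhibitor p21, had 13.5, 14.7 and 13.7 CPM in the clone and 20.8, 23.4 and 20.6 CPM in the control (log2 -0.63), and GDF15 and the death receptor FAS fell by 0.62 and 0.56. Of 10 NF-kB targets, 4 were lower and 0 higher, or 1 higher without clone library 1.

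YAP targets, which report on the Hippo pathway, split into 3 higher and 8 lower of 14. NUAK2, a kinase, had 20.9, 24.9 and 21.7 CPM in the clone and 45, 50.4 and 48.6 CPM in the control (log2 -1.09 ± 0.07, adjusted p = 3.45e-09). CCN1, a secreted matricellular protein, had 15.8, 15.1 and 13.4 CPM in the clone and 31.4, 32 and 27.5 CPM in the control (log2 -1.03), and its relative CCN2 fell by 0.63. For NUAK2 and CCN1 every clone library lay below every control library. TGFB2 and F3, tissue factor, were on the other side, higher by 0.52 and 0.25.

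**Figure D3:**
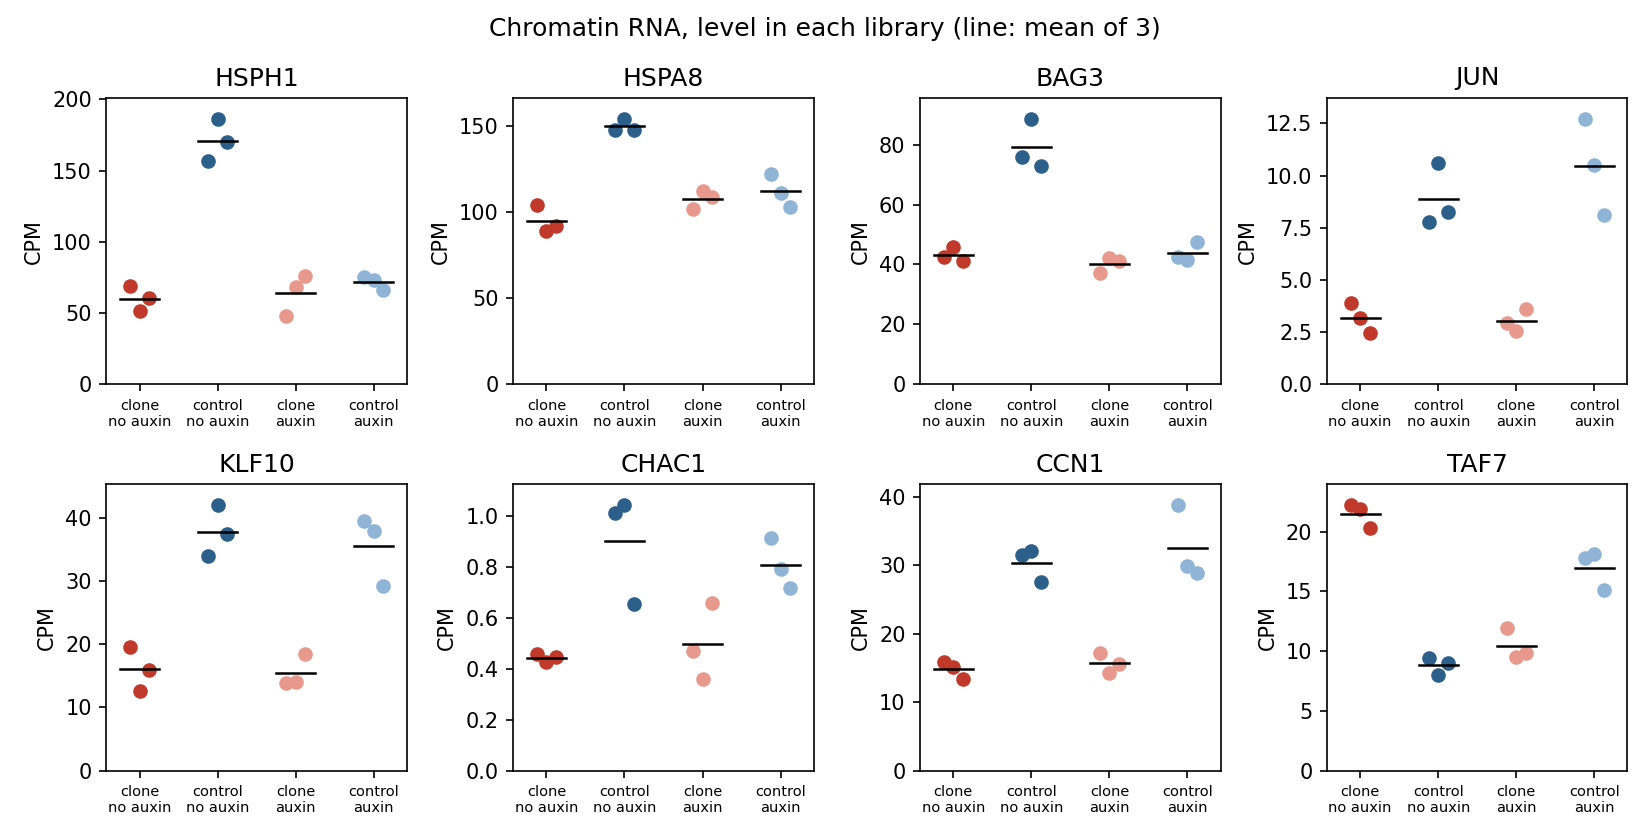
Level on chromatin (CPM) in each library of the DIS3-AID clone and the control, without auxin (dark) and with auxin (light), for 8 genes, with the mean of 3 as a line. HSPH1, HSPA8 and BAG3 were high in the untreated control alone; JUN, KLF10, CHAC1 and CCN1 were higher in the control with and without auxin; TAF7 was higher in the clone without auxin and lower in the clone with auxin.

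Among small RNAs that the exosome matures, more members were lower than higher on chromatin in the clone. Box H/ACA snoRNAs, which guide pseudouridylation, gave 1 higher and 30 lower of 124 (median log2 -0.14), and box C/D snoRNAs, which guide 2'-O-methylation, gave 3 higher and 25 lower of 143 (median -0.13). The shares lower were 24.2% and 17.5%, against 17.4% of all features, and the shares higher were 0.806% and 2.1%, against 15.2%. These counts moved with single libraries and with the scaling: 14 H/ACA snoRNAs were lower without clone library 2, 15 without clone library 3, 16 without control library 1, 17 without control library 3 and 15 with library size alone, and 17 box C/D snoRNAs were lower without clone library 2 or control library 3. The share of all counts that fell on snoRNAs was 0.0954%, 0.0879% and 0.0897% in the clone and 0.115%, 0.108% and 0.112% in the control. The clone libraries were all below the control (exact permutation test, two-sided p = 0.1, the smallest that 3 against 3 allows). In cytoplasm the medians ran the other way, at 0.33 for H/ACA and 0.44 for box C/D. Most snoRNAs sit in introns of host genes on the same strand, so their counts can hold host reads.

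SNORD3A, the U3 snoRNA needed for ribosomal RNA cleavage, had 39.4, 32.8 and 27.5 CPM in the clone and 60, 70.8 and 83 CPM in the control (log2 -1.10 ± 0.20, adjusted p = 0.00163). U3 has near-identical copies, so its reads may be split between them. SCARNA10, which guides the modification of spliceosomal RNA in Cajal bodies, had 44.2, 31.1 and 34 CPM in the clone and 61.9, 75 and 80 CPM in the control (log2 -0.99) and overlaps another feature on its strand. Neither overlapped between the lines. SCARNA21 fell by 0.64 and SNORA31B, which lies inside TPT1, by 0.71, while SNORD23, inside NOP53, rose by 0.58. Of 23 small Cajal body RNAs, 1 was higher and 5 were lower, and 0 were higher without any 1 of clone libraries 1 to 3 or control library 1 or 2. Of 31 spliceosomal RNA genes, 0 were higher and 7 lower (median -0.28). That count was 3 without clone library 2 or control library 1, and 4 with library size alone, with DESeq2, with a stricter filter or without control library 3. After auxin the median of the spliceosomal RNAs was 0.95, and 18 of the 31 had a clone difference that increased past the threshold.

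To follow features that rise in the clone when auxin is added, a list was drawn from the cytoplasm, of 3407 features that rose at least 2-fold in DIS3-AID cells after auxin. The auxin-treated control was not used to draw it, so it can hold responses to auxin itself as well as to loss of DIS3. Of the 3407 features, 2682 were tested on chromatin. Without auxin, 468 of these (17.4%) were higher and 213 (7.94%) lower in the clone, with a median log2 of 0.11, against 15.2% and 17.4% of all features. Within the list the medians were 0.12 for lncRNAs, 0.13 for assembled loci and 0.15 for protein-coding genes. Its small RNAs leaned lower. Of 35 small nuclear RNAs, 0 were higher and 9 lower (median -0.41), and of 89 snoRNAs, 1 was higher and 16 lower (median -0.09). After auxin the 2682 features had a median of 0.54, with 1360 higher. Antisense lncRNAs gave 171 higher and 109 lower of 853 (median 0.10), divergent transcripts 69 higher and 42 lower of 390 (median 0.07), and intergenic lncRNAs named LINC 108 higher and 93 lower of 597 (median 0.07). Without control library 3 the higher counts were 121, 46 and 81. The summed level ran the other way for the antisense lncRNAs, at 11360 to 11900 CPM in the clone and 12244 to 12618 CPM in the control, while the divergent transcripts, at 2708 to 2829 CPM in the clone and 2816 to 2855 CPM in the control, and the LINC genes, at 6957 to 7509 CPM in the clone and 7389 to 7631 CPM in the control, overlapped between the lines. Of the members with the largest rises, NFIB-AS1 rose by 2.72, ANK3-DT by 2.07, MIR503HG, a microRNA host transcript, by 1.29 and BTG1-DT by 1.17. ANK3-DT had 0.222, 0.262 and 0.214 CPM in the clone and 0.0834, 0.0728 and 0.0223 CPM in the control, without overlap but at a low level.

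**Figure D4:**
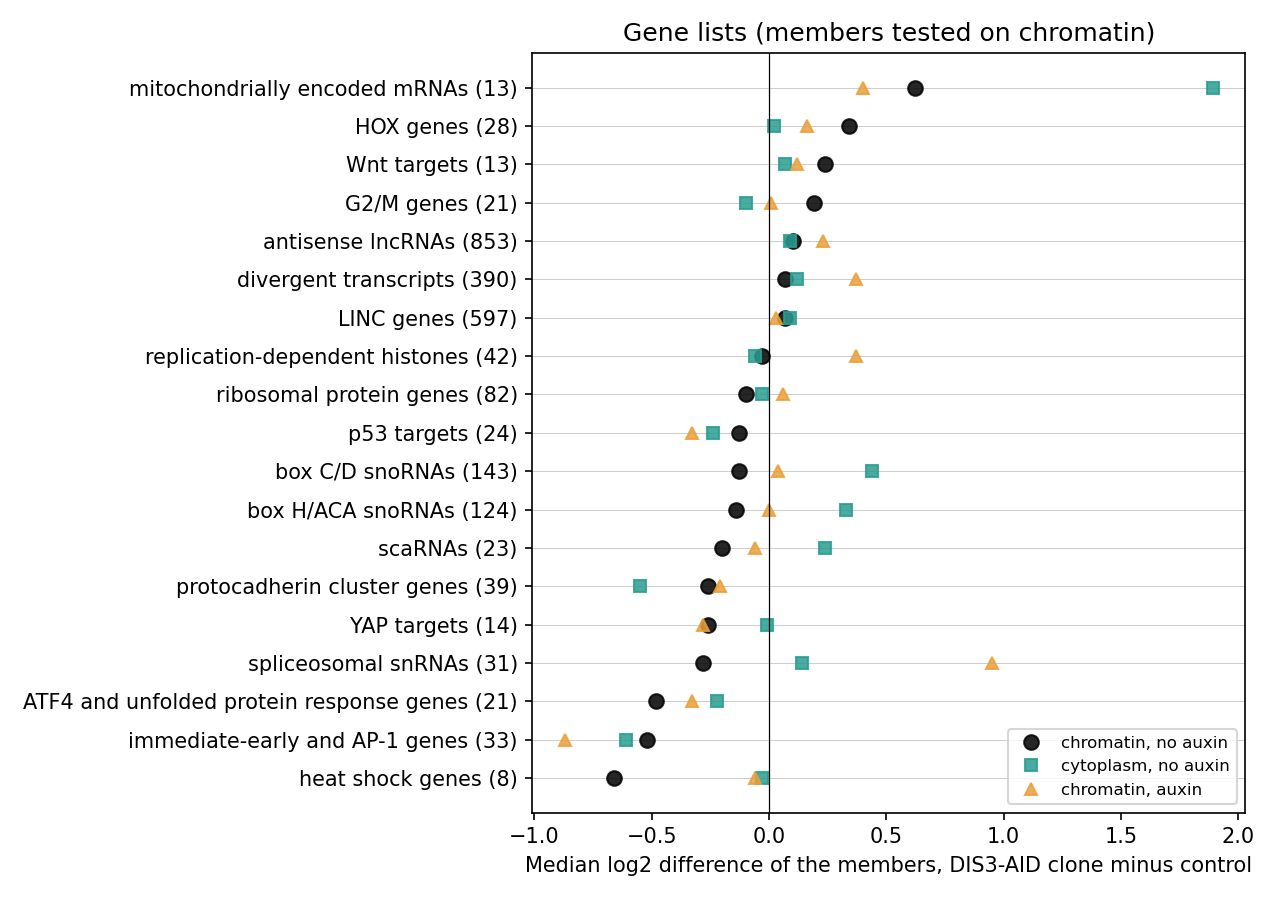
Median log2 difference of the members of 19 gene lists, DIS3-AID clone minus control, on untreated chromatin (black circles), in untreated cytoplasm (green squares) and on auxin-treated chromatin (orange triangles), with the number of members tested on chromatin in parentheses. Heat shock genes lie at -0.66 on untreated chromatin and near 0 in the other 2, immediate-early genes lie below 0 in all 3, and the mitochondrial mRNAs lie above 0 in all 3.

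Mitochondrially encoded mRNAs, which code for respiratory chain subunits, made up 0.36%, 0.321% and 0.248% of counts in the clone and 0.21%, 0.192% and 0.199% in the control (exact permutation test, two-sided p = 0.1). Every clone library was above every control library, with clone library 3 nearest to the control. Of the 13 mRNAs, 10 were higher and 0 lower, with a median log2 of 0.62. The count was 6 without clone library 2, 7 without clone library 1 or control library 3, and 4 with no filter on low counts. MT-ND1, a complex I subunit, had 404, 387 and 281 CPM in the clone and 203, 168 and 180 CPM in the control (log2 0.96 ± 0.16, adjusted p = 8.92e-04), and MT-ND2 and MT-ND5 rose by 0.92 and 0.70. MT-CO1, a complex IV subunit, had 511, 492 and 344 CPM in the clone and 302, 281 and 300 CPM in the control (log2 0.61), a call lost without clone library 2 (adjusted p = 0.0511) and with no filter on low counts (0.0724). These transcripts were higher in the clone in cytoplasm as well (median 1.89), whereas of the 8 abundant cytoplasmic mRNAs 0 were higher and 4 lower on chromatin in the clone (2 lower without clone library 2 or control library 1, and 1 higher and 2 lower with library size alone), with a summed level of 777 to 783 CPM in the clone and 824 to 864 CPM in the control. The part of carry-over between fractions in these differences was not tested.

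Among nuclear-retained lncRNAs, 1 of 13 was higher (7.69%) and 3 were lower (23.1%), against 15.2% and 17.4% of all features. Of these lncRNAs, 0 were higher without clone library 2 or 3 or any 1 control library, and 1 was lower without control library 2. NEAT1, the scaffold of paraspeckles, had 531, 574 and 538 CPM in the clone and 695, 698 and 691 CPM in the control (log2 -0.34, adjusted p = 7.18e-05). Its groups did not overlap, and its clone difference rose by 0.44 with auxin (adjusted p = 5.30e-04). The median of this list, -0.03, was 0.02 with library size alone and 0.07 after GC levelling, so it carries no direction. The 42 replication-dependent histone genes gave 1 higher and 1 lower, which became 0 and 4 without clone library 1 and 0 and 0 without clone library 2, clone library 3, control library 1 or control library 3, and 0 and 1 without control library 2.

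HOX genes, the homeobox factors of body axis patterning, gave 11 higher and 0 lower of 28, with a median log2 of 0.34 on chromatin and 0.02 in cytoplasm. HOXA3, which overlaps HOXA-AS2 on the opposite strand, rose by 0.58. HOXC4 had 12, 12.4 and 12.5 CPM in the clone and 8.69, 8.88 and 8.61 CPM in the control (log2 0.50), without overlap, but shares reads with HOXC6. Its difference was -0.33 after auxin, a change of -0.83 (adjusted p = 1.21e-05). Genes of G2 and mitosis gave 11 higher and 2 lower of 21, with a median of 0.19 on chromatin and -0.10 in cytoplasm, and in 12 of them the chromatin difference exceeded the cytoplasmic one past the threshold. The 11 higher were 7 without control library 2, and the 2 lower were 0 without clone library 2, control library 1 or control library 3 and 1 without clone library 3 or control library 2. BIRC5, the inhibitor of apoptosis survivin, had 30.2, 35.2 and 33.7 CPM in the clone and 23.5, 23.2 and 22.8 CPM in the control (log2 0.51). NUSAP1, a spindle protein, rose by 0.47 on chromatin and fell by 0.26 in cytoplasm, and AURKB, a mitotic kinase, rose by 0.38. Genes of S phase gave 3 higher and 2 lower of 20, and the 3 were 1 without clone library 2 or 3, 0 without control library 3, and 5 with library size alone or with the 6 untreated libraries alone.

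Targets of Wnt signalling, which is active in HCT116 through a mutation that stabilises beta-catenin, gave 6 higher and 2 lower of 13, and 4 higher without clone library 2 or control library 3. The 2 lower were 1 without clone library 1 or 3 or control library 2 or 3. AXIN2, a negative regulator of the pathway, had 10.1, 10.8 and 13 CPM in the clone and 8.3, 6.39 and 6.71 CPM in the control (log2 0.65, adjusted p = 2.70e-04). RNF43, a ubiquitin ligase for Wnt receptors, had 591, 636 and 623 CPM in the clone and 473, 421 and 461 CPM in the control (log2 0.45), with no overlap for either gene. AXIN2 and RNF43 each overlap another gene on their strand. Ribosomal protein genes gave 8 higher and 24 lower of 82. The split was 10 and 14 with library size alone, 2 and 8 without clone library 2, 2 and 15 without clone library 3, 4 and 14 without control library 1, 2 and 19 without control library 2, and 3 and 11 without control library 3. RPL41, RPL37A and RPL31 fell by 0.54, 0.51 and 0.49. Interferon response genes gave 1 higher (5.56%) and 5 lower (27.8%) of 18, against 15.2% and 17.4% of all features. The 1 became 0 without control library 3. The 5 became 1 without clone library 3 and 2 without clone library 2 or control library 1.

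The markers of other cell types were checked against the label of a colon carcinoma line. EPCAM, an epithelial adhesion protein, had 42.1, 38.7 and 38.5 CPM in the clone and 40, 42 and 38.2 CPM in the control, and KRT19 had 38.2, 44.8 and 43.6 CPM in the clone and 42.1, 43.4 and 40.5 CPM in the control. Both overlapped between the lines. Among colon epithelial markers 2 were higher and 2 lower of 11, with CDH1, E-cadherin, higher by 0.35. KRT8 and KRT18, which overlap each other on opposite strands, fell by 0.24 and 0.49 on chromatin and rose by 0.29 and 0.41 in cytoplasm. Of 5 mesenchymal markers tested, 3 were lower and 0 higher; with 1 library left out, 1 was higher, or 2 without control library 1. ZEB1, a repressor of epithelial genes, had 73.7, 58.6 and 58.8 CPM in the clone and 140, 162 and 167 CPM in the control (log2 -1.30 ± 0.14, adjusted p = 1.62e-05), FN1, fibronectin, fell by 1.29 and VIM, vimentin, by 1.86. The summed level of the 12 mesenchymal markers was 75.3 to 88.1 CPM in the clone and 164 to 186 CPM in the control. Most of this sum was ZEB1, and 6 of the 12 members in the clone and 7 in the control had a mean under 0.1 CPM. The highest difference among the members tested was 0.69, on the other side, and it was not called. Of the 8 blood markers, 1 passed the filter, and their summed level was 0.193 to 0.467 CPM in the clone and 0.349 to 0.492 CPM in the control.

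The differences were not even along the genome. Over 12588 protein-coding genes the median log2 difference was -0.02, and by chromosome it was highest on 19 (0.10) and 22 (0.08) and lowest on 5 (-0.13) and 13 (-0.11). The gap of 0.22 between highest and lowest stayed between 0.18 and 0.29 when any 1 library was left out. The GC content of transcripts moved with the difference as well: the medians of its quartiles, from lowest to highest GC, were -0.13, -0.05, 0.02 and 0.06. For clone library 1 alone they were -0.05, -0.02, -0.01 and -0.01, while for clone library 2 they were -0.22, -0.06, 0.05 and 0.10 and for clone library 3 -0.15, -0.05, 0.03 and 0.10. The part of GC content in the chromosome medians was not tested.

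In windows of 25 consecutive protein-coding genes, 33 of 493 had a chromatin median at or under -0.2 and 5 one at or over 0.2. Of these windows, 4 were at or under -0.2 on untreated chromatin, in untreated cytoplasm and on auxin-treated chromatin, and 0 were at or over 0.2 in all 3. They were singled out after their values were seen. The windows MTRR to NPR3 and TARS1 to TTC33 adjoin on the short arm of chromosome 5 (5:7851186-40755975, hg38, with TTC33 at the end). Of their 50 genes, 39 were lower and 2 higher in the clone, with a median of -0.42 and quartiles of -0.58 and -0.24. Against the control mean, the clone libraries had medians of -0.36, -0.46 and -0.43. The median was -0.31 in cytoplasm and -0.38 after auxin. As the windows were picked by their medians in the 3 comparisons, these values describe them and are no separate support. The limits are those of the 25-gene grid. Just before MTRR, SRD5A1 and TENT4A differed by -0.48 and -0.37. Inside the stretch, LIFR, OSMR, RICTOR, C9 and DAB2 differed by -0.01, -0.24, -0.04, 0.12 and 0.13, and OSMR was called lower (adjusted p = 0.00149, edgeR). C9 overlaps DAB2 on its strand, and C1QTNF3-AMACR overlaps AMACR and C1QTNF3 on theirs. These genes can share reads, so their values are not separate measurements. The remaining 547 genes of chromosome 5 had 59 higher and 184 lower and a median of -0.11.

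OTULIN, a deubiquitinase for linear ubiquitin, had 61.6, 55.5 and 58.4 CPM in the clone and 99.1, 96.4 and 101 CPM in the control (log2 -0.75). SKP2, a cell cycle ubiquitin ligase subunit, had 65.4, 57.8 and 62 CPM in the clone and 97.8, 95.5 and 98.6 CPM in the control (log2 -0.66), and TARS1, threonyl-tRNA synthetase, fell by 0.74. Neither OTULIN nor SKP2 overlapped between the lines. SLC1A3, a glutamate transporter, was 1 of the 2 exceptions, with 353, 369 and 360 CPM in the clone and 232, 219 and 225 CPM in the control (log2 0.68), and the natriuretic peptide receptor NPR3 was the other (0.59). The third window, MIGA1 to ODF2L on chromosome 1, had medians of -0.21 on chromatin, -0.22 in cytoplasm and -0.29 after auxin. The fourth, PCDHA6 to PCDHGA9 on chromosome 5, is the protocadherin cluster, whose members share 3' exons and so share reads, so that their calls are not separate measurements. Of 39 protocadherin genes tested, 31 were lower and 0 higher (median -0.26), against 16 with library size alone, 16 without clone library 3 or control library 2, 17 without clone library 2 and 19 without control library 1.

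**Figure D5:**
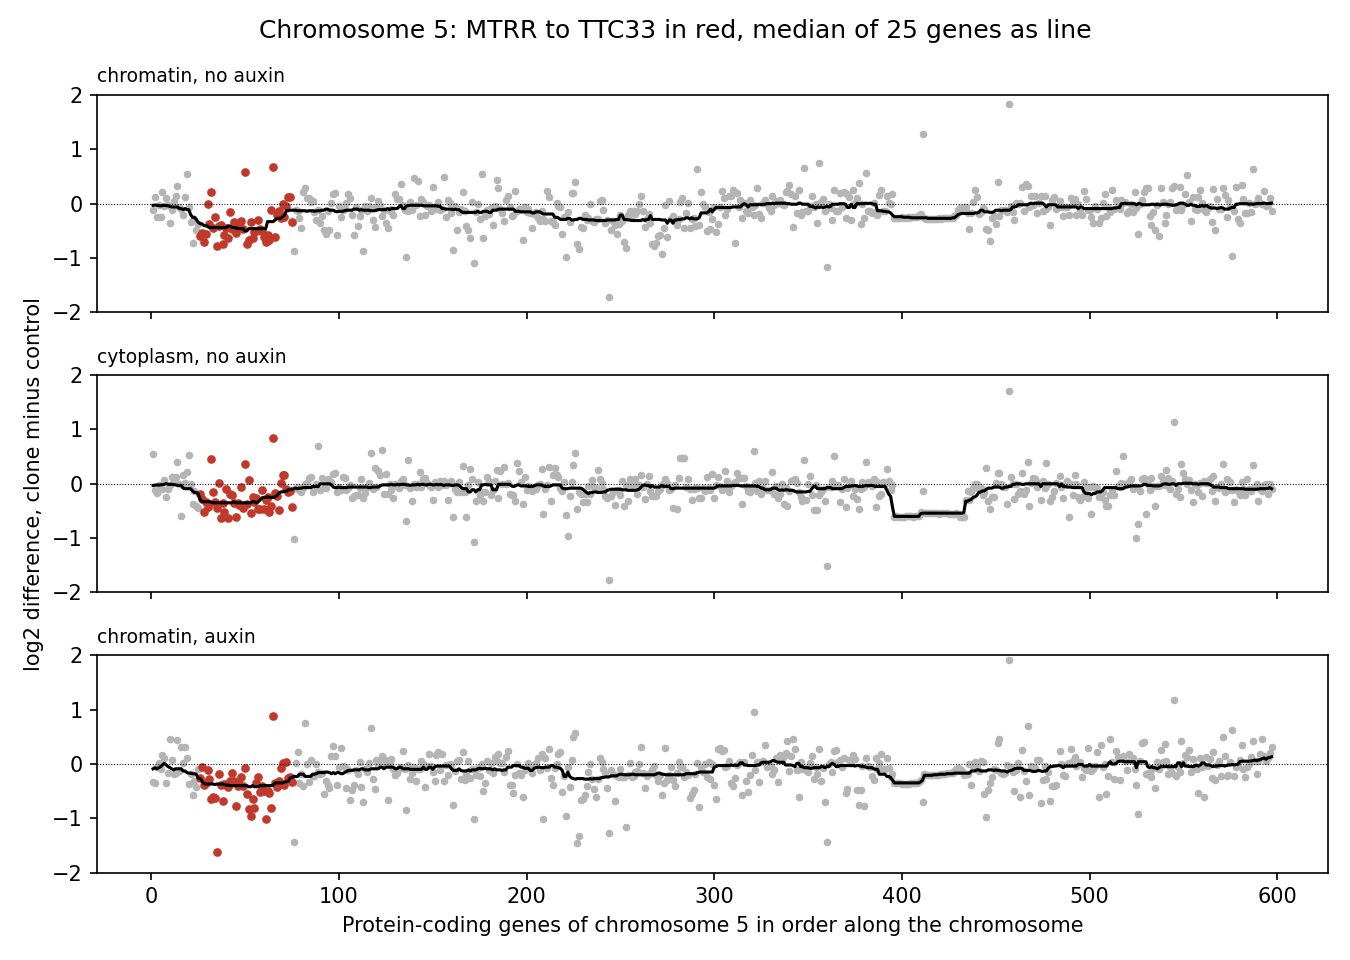
Log2 difference, DIS3-AID clone minus control, of protein-coding genes of chromosome 5 in order along the chromosome (1 point a gene), on untreated chromatin, in untreated cytoplasm and on auxin-treated chromatin, with the median of 25 genes as a line and the 50 genes MTRR to TTC33 in red. The red genes lie mostly below 0 in all 3 panels, whose medians were used to pick their windows. In each panel 1 gene beyond 2 in size is not drawn.

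The clone difference itself was tested between conditions. Between chromatin and cytoplasm it differed for 4407 of 26378 features (16.7%), more positive on chromatin for 2158 (8.18%) and more negative for 2249 (8.53%). Between auxin-treated and untreated chromatin it differed for 4429 features (17.7%), more positive with auxin for 2131 (8.54%) and more negative for 2298 (9.2%). With library size alone the second split was 1513 and 3193. The first count was 2841 without control library 3; its more positive part was 943 without control library 2 and 1089 without control library 3, and its more negative part was 3679 without clone library 1. The 2 tests share the 6 untreated chromatin libraries. TAF7, a subunit of the general transcription factor TFIID (ENSG00000178913.7, chromosome 5:141260225-141320821, minus strand), showed one of the largest changes of both. On untreated chromatin it had 22.2, 21.9 and 20.3 CPM in the clone and 9.43, 8.03 and 9.01 CPM in the control, and after auxin 11.9, 9.51 and 9.82 CPM in the clone and 17.8, 18.1 and 15.1 CPM in the control. The order of the lines thus turned round without overlap in either pair. Its difference was 1.28 without and -0.71 with auxin, a change of -1.98 (adjusted p = 5.89e-08), and it was -0.14 in cytoplasm, below the chromatin difference by 1.42 (adjusted p = 1.17e-10).

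LINC01389 turned in the same way, with 1.72, 1.83 and 1.76 CPM in the clone and 0.834, 0.637 and 0.557 CPM in the control without auxin, and a change of the difference of -2.00 with auxin (adjusted p = 3.91e-05). ASTL, an oocyte metalloprotease, changed by -2.03 (adjusted p = 1.76e-04). The low-level lncRNA ENSG00000280029, which lies at some distance from TAF7 in the protocadherin cluster and antisense to PCDHB5 and PCDHB15, changed by -2.50 (adjusted p = 3.34e-05). BMF, a pro-apoptotic BH3-only protein at under 1 CPM on chromatin, differed by 0.65 there (adjusted p = 0.142) and by -1.71 in cytoplasm, and the gap was 2.36 (adjusted p = 7.97e-05).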

How the data were processed

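Read counts per feature were deposited by the authors as 1 table per library (59607 features, of which 1433 are loci without an Ensembl identifier). STAR 2.7.3a, Cufflinks 2.2.1, featureCounts 2.0.0 and hg38 are named per the submitters' processing notes; the strand setting of the counting is not given in the sources used here. Features were annotated with GENCODE 29, which held 57836 of them.

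Here, the 12 chromatin libraries were fitted together with edgeR 4.0.16 in R 4.3.3 (TMM, filterByExpr with a minimum count of 10, robust quasi-likelihood test, Benjamini-Hochberg adjusted p under 0.05), and the 12 cytoplasmic libraries and the 12 untreated libraries likewise. CPM are counts per 1000000 of TMM-scaled library size, and differences are log2, clone minus control, with the standard error of the fit. The biological coefficient of variation on chromatin was 6.53%. TMM factors were 0.9688 to 1.0346. Depth limits rare features most; intervals cover counting error only. The fit was tested on simulated data. Libraries of a group differed by more than sampling noise (chi-square per degree of freedom 4.7 to 21.19) and were kept as 3. Same-numbered libraries did not deviate together (Pearson r -0.14, 0.073 and -0.019 across features), so the numbers were not taken to pair them.

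Alternatives were library size scaling, DESeq2 1.42.0, other filters, only the 6 libraries, a replicate block, leaving out each library, and, chosen after seeing the data, GC levelling and leaving out libraries in the 2 tests of a difference between differences. Members and lists were chosen with earlier results of these data known. Named genes were the exosome genes and neighbours of DIS3, the 12 protein-coding and 6 non-coding genes with the largest called difference in each direction (at least 1 CPM in the higher line, no overlap), up to 3 called members of each list in each direction, and the 5 largest in each test of a difference between differences; others, and values for list members beyond these, were added after their values were seen. Motifs were searched on both strands in RefSeq promoters of GRCh38.p14.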

Additional observations from a re-analysis of the deposited data

Results flagged for a closer look

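Each result here is one in which the difference between the lines itself differed between 2 conditions, by the edgeR test of that difference at an adjusted p under 0.05. Values are log2 and give the difference between the clone and the control in the first condition minus that in the second. Between chromatin and cytoplasm without auxin 4407 features met this, and between auxin-treated and untreated chromatin 4429 did.

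The clone difference was more positive on chromatin than in cytoplasm for ENSG00000235609 (3.70), ANK3-DT (2.58), BMF (2.36), NFIB-AS1 (1.92), TAF7 (1.42), BTG1-DT (1.29), LINC01389 (1.13), HOXA-AS2 (0.82) and SKIC3 (0.80). It was also so for NUSAP1 (0.72), AXIN2 (0.63), HOXC4 (0.62), BIRC5 (0.61), EXOSC5 (0.43), AURKB (0.43), HOXA3 (0.38), DIS3L (0.37) and RNF43 (0.22). It was more negative on chromatin for ERBB4 (-2.25), MACROD2-IT1 (-1.51), LRP1B (-1.49), MT-ND2 (-1.42), LINC02112 (-1.25), HSPH1 (-1.24), SNORA31B (-1.01) and FN1 (-0.99). The same direction was found for KRT18 (-0.90), BAG3 (-0.88), F3 (-0.76), HSPA8 (-0.76), TNFSF4 (-0.72), ZEB1 (-0.59), RPL41 (-0.58) and PIBF1 (-0.55). It was found too, at smaller size, for DDIT3 (-0.55), SPARC (-0.54), DNAJB1 (-0.53), KRT8 (-0.53), HSP90AA1 (-0.41), RPL37A (-0.41), RPL31 (-0.41) and OTULIN (-0.41). The list ended with HSPD1 (-0.38), TARS1 (-0.36), CDKN1A (-0.31), ZFC3H1 (-0.28) and DIS3L2 (-0.27).

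With auxin, the clone difference was more positive than without it for HSPH1 (1.35), BAG3 (0.74), RPL31 (0.69), SNORD23 (0.66), HSPA8 (0.60), DNAJB1 (0.57), HSP90AA1 (0.54) and NRG1 (0.49). To these were added F3 (0.46), RPL41 (0.46), NEAT1 (0.44), HSPD1 (0.40), RPL37A (0.38), TRABD2B (0.33), TENT4A (0.28) and RNF43 (0.27). It was more negative with auxin for ENSG00000280029 (-2.50), ANK3-DT (-2.20), BMF (-2.10), ASTL (-2.03), LINC01389 (-2.00), TAF7 (-1.98), BTG1-DT (-1.60), EGR3 (-1.21) and HOXC4 (-0.83). Smaller shifts were those of CARMAL (-0.76), NPR3 (-0.66), TGFB2 (-0.60), HOXA3 (-0.51), NUSAP1 (-0.45), NUAK2 (-0.36), KLF5 (-0.35) and NRDE2 (-0.33). All 6 heat shock genes named here were more positive with auxin and more negative on chromatin than in cytoplasm.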

How the results depend on the processing

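Of the 121 genes named, with 1688 alternative values in all, 1664 values kept direction and side of the threshold, 15 lost the call, 9 gained it and 0 reversed. In all, 111 genes kept their side throughout, and 4 lost the call without 1 library (EGR1, EXOSC1, EXOSC9 and MT-CO1). Many of these genes were named for large called differences in the same libraries, which favours such stability, so it does not extend to other features. The count of 8120 stayed within 1.5 times: 7427 with the replicate block, 5705 (without clone library 2) to 8498 (without clone library 1) with 1 library left out, of which 2632 to 3904 were higher and 3073 to 4594 lower. GC levelling gave 4527 higher and 4230 lower. DIS3 ranged from -0.78 to -0.63 and was -0.70 under the replicate block.

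The chromatin against cytoplasm count of 4407 (2158 more positive, 2249 more negative) was 2841 without control library 3 to 5275 without clone library 1 in all; 943 (without control library 2) to 1862 more positive, with 1089 without control library 3; 1640 to 3679 (without clone library 1) more negative; and 950 more positive with no filter on low counts. With the replicate block it was 3970, and the auxin count of 4429 was 3789, or 3094 to 4710 with 1 library left out (1446 to 2258 and 1648 to 2452 by direction). The median of the features that rose after auxin, 0.11, was 0.16 with library size alone, 0.08 with no filter, and 0.08 to 0.14 with 1 library left out. The clone minus control gap in the protein-coding share of counts, 0.0439 percentage points, was 0.146 without mitochondrial genes in the total and 0.00152 to 0.0665 with 1 library left out; that of lncRNAs was -0.181 to -0.151, of snoRNAs -0.0231 to -0.0194, of snRNAs -0.00602 to -0.00429 and of mitochondrial mRNAs 0.0839 to 0.14. List members called numbered 788 to 1119. The causes were not tested. Only 3 libraries a line, from 1 clone and with no separate cultures stated, limit every comparison.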

Other observations

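Zinc finger genes, the largest family of transcription factors, gave 77 higher and 77 lower of 365 on chromatin, 21.1% each. Of all features, 15.2% were higher and 17.4% lower. The median log2 of the zinc finger genes was 0.01, even though ZNF615 and ZNF850 were among the largest falls. The 77 higher were 51 without clone library 3. Of 15 genes for glutamate, GABA and other synaptic functions, 3 were higher (20%) and 5 lower (33.3%). Of 44 microRNA host transcripts, 10 were higher (22.7%) and 8 lower (18.2%).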
